A study of Mus musculus with 6 samples.

Results

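Platelet-derived growth factor (PDGF) ligands are secreted as dimers and act on 2 receptor tyrosine kinases, PDGFRα and PDGFRβ. In growing vessels, PDGF-B released by endothelial cells recruits pericytes and vascular smooth muscle cells, together called mural cells, through PDGFRβ, while PDGFRα marks fibroblasts and other mesenchymal cells. Mural cells of contractile type express a smooth muscle programme that serum response factor (SRF) and its coactivator myocardin switch on at CArG boxes in gene promoters.

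The 10 genes described here were taken by symbol from the 21671 named genes of the deposited count table, and all 10 were present. They are the ligand gene Pdgfb, the receptor genes Pdgfra and Pdgfrb, the pericyte genes Rgs5 and Cspg4, the smooth muscle contractile genes Acta2, Tagln, Cnn1 and Myh11, and the coactivator gene Myocd. A filter on low counts kept 14809 genes for testing, among them 9 of the 10. Myocd did not pass it.

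RNA was sequenced from subcutaneous tumours that grew in CD1 nude ho mice after injection of transformed hepatoblasts, liver progenitor cells. The doxycycline group holds 3 libraries, treatment label 4h Doxycycline and genotype label ST18 knockdown, from mice gavaged with 200 mg/ml doxycycline in 300 µl of water and killed after 4 h. The untreated group holds 3 libraries with the genotype label wild type. Per the protocol, which is the same for every sample, the injected cells carried TtRMPVIR shST18, a vector whose hairpin against the transcription factor gene St18 is switched on by doxycycline. Drug, gavage and hairpin therefore cannot be told apart in this comparison, and no group with drug alone was analysed here. Whether libraries of a group came from different mice is not stated, so p-values measure the spread between these libraries, which may be technical. Reads of tumour cells and of host vessels and stroma were counted together.

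Libraries held 12090309 to 15899374 counts in the doxycycline group and 13148155 to 16169043 in the untreated group. St18 had 34, 12 and 61 counts in doxycycline libraries 1 to 3, against 12, 23 and 19 in untreated libraries 1 to 3. In CPM (defined below) it was at 2.85, 0.824 and 3.83 in doxycycline libraries 1 to 3, against 0.908, 1.45 and 1.28 in untreated libraries 1 to 3. Doxycycline libraries 1 and 3 lay above all untreated libraries, and doxycycline library 2 lay below them. The log2 fold change was 1.03 (SE 0.55, edgeR adjusted p = 0.298). As a group, the libraries labelled ST18 knockdown thus did not show less of the targeted RNA. Over all genes tested, 421 (2.84%) were higher and 323 (2.18%) lower after doxycycline (edgeR quasi-likelihood test, adjusted p under 0.05). With upper quartile scaling these numbers were 535 and 277, and with offsets for GC content and length 302 and 414. Doxycycline library 2 stood apart from doxycycline libraries 1 and 3 on the second principal component (27.6% of the variance). The 15 skeletal muscle markers summed to 445, 716 and 109 CPM in doxycycline libraries 1 to 3 and to 31.5, 62.6 and 26.6 CPM in untreated libraries 1 to 3. CPM are counts normalised to the TMM-scaled library total. Of the 12 hepatoblast and hepatocyte markers 7 were tested, and 3 had positive and 4 negative log2 fold changes. Alb had 0, 2 and 0 counts in the doxycycline libraries and 2, 2 and 1 in the untreated libraries. The keratin genes were detected and varied within groups: Krt8 had 504 to 1433 counts in the doxycycline libraries and 339 to 927 in the untreated libraries, Krt18 had 722 to 958 in the doxycycline libraries and 802 to 1162 in the untreated libraries, and Krt19 had 20 to 463 in the doxycycline libraries and 46 to 91 in the untreated libraries. None was called (edgeR adjusted p), although Krt19 was higher without doxycycline library 2 (adjusted p = 0.00764).

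None of the 9 tested genes passed the threshold in either direction (edgeR quasi-likelihood test, adjusted p under 0.05), where 5.02% of all genes did. Limma-voom also called 0 of 9 (3.56% of all genes), and DESeq2 called Acta2, Tagln and Myh11 higher, 3 of 10 against 5.74% of all genes. With no filter on low counts Acta2 and Tagln were higher (2 of 10; 2.15% of all genes), and with offsets for GC content and length Tagln alone (2.05%). At an unadjusted p under 0.05, edgeR placed 4 of the 9 higher (Pdgfra, Acta2, Tagln and Myh11; 13.1% of all genes) and 1 lower (Pdgfrb; 10.8% of all genes). The doxycycline libraries lay wholly above the untreated libraries in CPM for Pdgfra, Acta2, Tagln and Cnn1, 4 of 9 (15.2% of all genes), and wholly below them for Pdgfrb, 1 of 9 (14.4%). Of the 9 values 7 were positive, as were 51.1% of all, and their median log2 fold change was 0.67, against 0.01 over all genes tested. In tumour tissue, a change in the number of cells of a type and a change in RNA per cell cannot be told apart.

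Which library was included mattered for 4 of these genes. Without doxycycline library 2, Rgs5, Acta2, Tagln and Myh11 were higher (4 of 10; 8.18% of all genes). That library was the lowest of the 3 doxycycline libraries for 8 of the 10 genes and the highest for Pdgfra and Cspg4. Over all genes tested it was the lowest for 40.5% and the highest for 37%. In the broader lists it was the lowest for 12 of 24 smooth muscle contractile genes and for 12 of 20 pericyte markers. The same library had the highest sum of skeletal muscle markers. The part of that muscle signal in the values below was not tested.

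**Figure D1:**
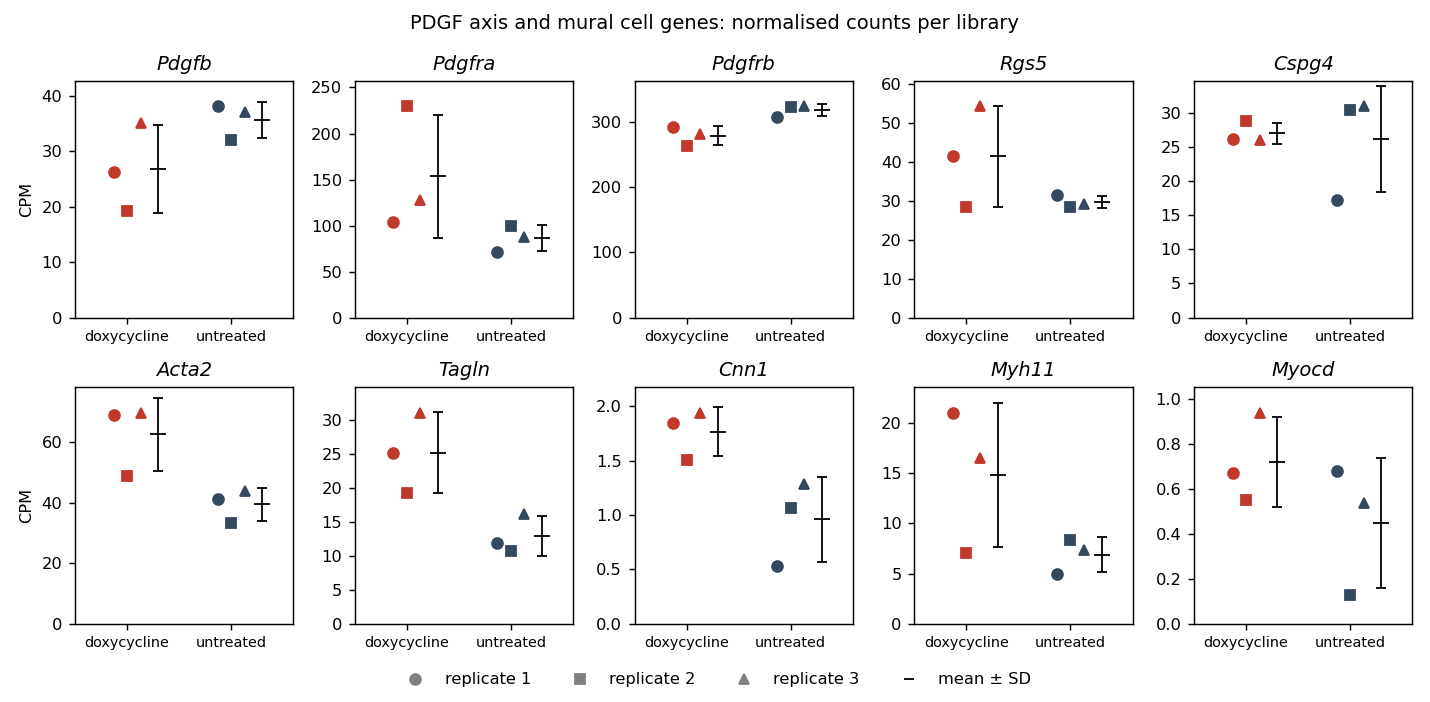
Normalised counts (CPM, linear axes from 0) of the 10 genes in each library, doxycycline on the left of each panel and untreated on the right, with symbols for replicates 1 to 3 and the mean ± SD beside each group. Pdgfra at 229 CPM and Myh11 at 7.01 CPM in doxycycline library 2 lie apart from the other doxycycline libraries in opposite directions.

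Pdgfb encodes the PDGF-B chain, the ligand that endothelial cells use to hold mural cells. It had 26.2, 19.2 and 35.1 CPM in doxycycline libraries 1 to 3, against 38.0, 31.9 and 37.0 CPM in untreated libraries 1 to 3. The groups overlapped, because doxycycline library 3 lay above untreated library 2. EdgeR put the log2 fold change at -0.41 (SE 0.21, with a 95% interval of -0.90 to 0.08, edgeR adjusted p = 0.289). With offsets for GC content and length it was -0.25, and without doxycycline library 2 or 3 it was -0.22 or -0.66. Of 16 endothelial markers tested, Tek and Cdh5 were higher and none lower (edgeR; 2.84% and 2.18% of all genes). The call of Cdh5 was lost without any 1 untreated library (edgeR adjusted p 0.128 to 0.138) and without doxycycline library 3 (0.0849). The sum of the 16 markers was 734 to 765 CPM in doxycycline libraries and 648 to 695 CPM in untreated libraries.

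Pdgfra, the receptor for PDGF-A, PDGF-B and PDGF-C chains, had the widest spread in CPM among the doxycycline libraries. It had 103, 229 and 127 CPM in doxycycline libraries 1 to 3, against 71.0, 99.4 and 87.8 CPM in untreated libraries 1 to 3. Every doxycycline library lay above every untreated one, by a small margin in library 1 and by a wide one in library 2. The means were 153 ± 66.9 CPM after doxycycline and 86.1 ± 14.3 CPM untreated (SD, n = 3 each). As a log2 fold change this was 0.83 (SE 0.27, with a 95% interval of 0.22 to 1.45) and did not pass the threshold (edgeR adjusted p = 0.112). Without doxycycline library 2 it was 0.42 (adjusted p = 0.0817). Annotated antisense transcripts overlap Pdgfra exons by up to 341 bases, and how strand was used in counting is not given in the sources used here.

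Pdgfrb, the receptor by which mural cells sense PDGF-B, was the most abundant of the 10 genes and, relative to its mean, varied least within each group. It had 292, 263 and 281 CPM in doxycycline libraries 1 to 3, against 307, 322 and 324 CPM in untreated libraries 1 to 3. All doxycycline libraries lay below all untreated ones. The difference was small, with means of 279 ± 14.5 CPM after doxycycline and 318 ± 9.20 CPM untreated (SD, n = 3 each). EdgeR put the log2 fold change at -0.19 (SE 0.07, with a 95% interval of -0.34 to -0.04, edgeR adjusted p = 0.138). Counts of abundant genes rose less than depth between the untreated libraries. The deepest held 1.23 times the total of the shallowest, while the median gene at 0.5 to 1 counts per base of transcript had a ratio of 1.16. Pdgfrb stood at 0.725 counts per base after doxycycline and 0.859 untreated. What this does to its difference was not tested.

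The balance of both receptors, taken per base of the longest annotated transcript, was higher after doxycycline in every library, a difference that was not tested. The Pdgfra to Pdgfrb ratio was 0.281, 0.692 and 0.359 in doxycycline libraries 1 to 3, against 0.184, 0.245 and 0.215 in untreated libraries 1 to 3. Pdgfrb thus remained the more abundant receptor RNA in all 6 libraries. The ratio of Pdgfb to Pdgfrb per base was 0.165, 0.134 and 0.229 in doxycycline libraries 1 to 3, against 0.228, 0.183 and 0.211 in untreated libraries 1 to 3, and the groups overlapped.

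Around these 3 genes, members of the PDGF family lay on both sides of 0. Of its 7 ligand and receptor genes, all tested, 2 were higher and none lower (edgeR; 2.84% and 2.18% of all genes). At an unadjusted edgeR p under 0.05, 4 were higher and 2 lower (13.1% and 10.8% of all genes). Limma-voom called 2 higher (3.56% of all genes in either direction). DESeq2 called 2 higher (5.74% of all genes) and Pdgfa lower (790 of 15292 genes over all). Without doxycycline library 2, 2 were higher (8.18% of all genes) and 1 lower (866 of 15217 genes over all). Pdgfc encodes a ligand that is secreted latent and signals mainly through PDGFRα. It had 17.0, 10.99 and 22.3 CPM in doxycycline libraries 1 to 3, against 6.28, 5.53 and 5.06 CPM in untreated libraries 1 to 3, without overlap. It rose by a log2 fold change of 1.58 (SE 0.29, edgeR adjusted p = 0.0261). Pdgfrl encodes a secreted protein that resembles the extracellular part of the receptors. It had 4.61, 5.70 and 3.20 CPM in doxycycline libraries 1 to 3, against 0.227, 0.880 and 0.810 CPM in untreated libraries 1 to 3. It rose by 2.78 on the log2 scale (SE 0.49, edgeR adjusted p = 0.0234), with 29 counts in all untreated libraries together. Both calls were lost when any 1 untreated library was left out (edgeR adjusted p 0.102 to 0.142 for Pdgfc and 0.0813 to 0.123 for Pdgfrl). They were also lost without doxycycline library 1 (0.0586 and 0.0529), and that of Pdgfc without doxycycline library 3 (0.0716).

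The other ligands lay on both sides of 0 without passing the threshold. Pdgfa, which encodes a PDGFRα ligand, had 20.3, 18.2 and 20.4 CPM in doxycycline libraries 1 to 3, against 27.5, 29.6 and 32.6 CPM in untreated libraries 1 to 3. All doxycycline libraries lay below all untreated ones (log2 fold change -0.61, with a 95% interval of -0.95 to -0.27, edgeR adjusted p = 0.0549). Pdgfa passed without doxycycline library 2 (adjusted p = 0.0366) and with offsets for GC content and length (adjusted p = 0.0472). Pdgfd, whose product acts through PDGFRβ, was at 3.92 ± 0.301 CPM after doxycycline and 1.89 ± 0.549 CPM untreated (SD, n = 3 each), with a log2 fold change of 1.05 (edgeR adjusted p = 0.11).

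**Figure D2:**
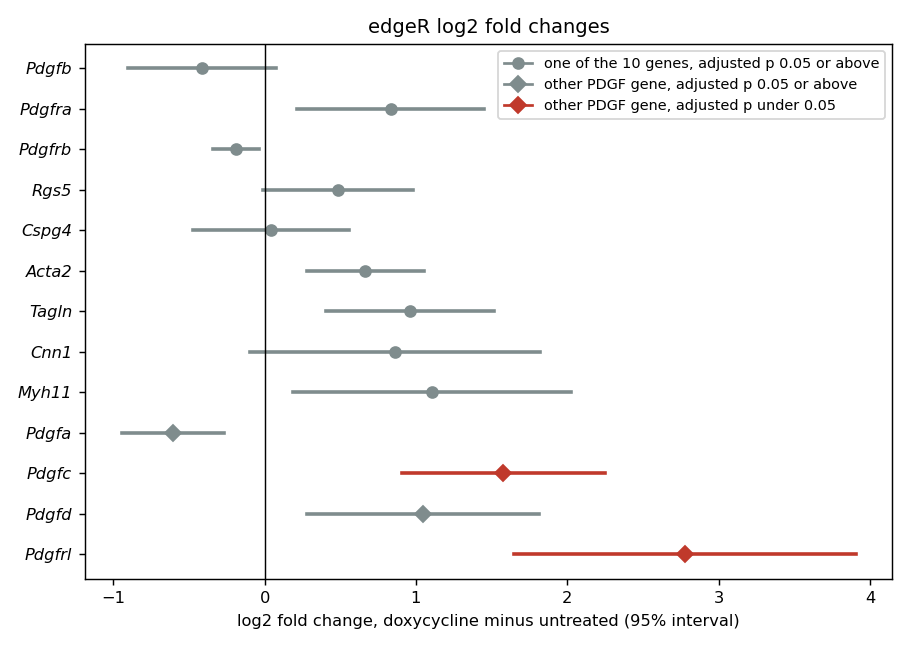
Log2 fold changes of the 9 tested genes (circles) and the other PDGF ligand and receptor genes (diamonds), doxycycline minus untreated, with 95% intervals from edgeR. Only Pdgfc and Pdgfrl, in red, passed an adjusted p of 0.05, although the intervals of Pdgfra, Pdgfrb, Acta2, Tagln, Myh11, Pdgfa and Pdgfd also leave out 0.

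Of 13 tested genes that process PDGFs or guide mural cells to vessels, edgeR called Pcsk5 and Angpt1 higher and none lower. Over all genes these shares were 2.84% and 2.18%. At an unadjusted edgeR p under 0.05, 4 were higher and 2 lower (13.1% and 10.8% of all genes). DESeq2 called 3 higher (5.74% of all genes) and limma-voom 1 higher (3.56% of all genes in either direction), neither any lower. Without doxycycline library 2, 4 were higher (8.18% of all genes) and 1 lower (866 of 15217 genes over all). In CPM the doxycycline libraries lay wholly above the untreated ones for 5 (15.2% of all genes) and wholly below for 2 (14.4%). The median log2 fold change was 0.06. Angpt1 encodes angiopoietin 1, a ligand that mural cells supply to the endothelial receptor TIE2. It had 22, 17 and 36 counts in doxycycline libraries 1 to 3, against 5, 6 and 2 in untreated libraries 1 to 3, and rose by 2.54 on the log2 scale (SE 0.52, edgeR adjusted p = 0.0334). Tek, the gene for TIE2, was at 12.7 ± 0.570 CPM after doxycycline and 5.11 ± 0.505 CPM untreated (SD, n = 3 each), a log2 fold change of 1.31 (edgeR adjusted p = 0.0215). Pcsk5, a proprotein convertase gene, had 14.8, 3.71 and 11.7 CPM in doxycycline libraries 1 to 3, against 1.13, 0.314 and 0.608 CPM in untreated libraries 1 to 3 (log2 fold change 3.88, edgeR adjusted p = 0.0188). It was lowest of the doxycycline libraries in library 2, as 8 of the 10 genes were. Each of these 3 calls was lost without any 1 untreated library (edgeR adjusted p 0.0828 to 0.182) and without doxycycline library 3 (0.0536 to 0.0972), and that of Angpt1 also without doxycycline library 1 (0.0714). Limma-voom did not call Pcsk5 (adjusted p = 0.0515).

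Rgs5 encodes a regulator of G protein signalling that is widely used to mark pericytes. It had 41.6, 28.4 and 54.3 CPM in doxycycline libraries 1 to 3, against 31.4, 28.3 and 29.2 CPM in untreated libraries 1 to 3. Libraries 1 and 3 of the doxycycline group lay above the untreated range, and library 2 lay within it. As a log2 fold change this was 0.48 (SE 0.22, with a 95% interval of -0.01 to 0.98, edgeR adjusted p = 0.221). It was 0.69 without doxycycline library 2, which passed (adjusted p = 0.0132), 0.24 without doxycycline library 3 and 0.26 with offsets for GC content and length. With 41.1% GC, its transcript was the poorest in GC of the 10.

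Cspg4 encodes NG2, a surface proteoglycan of pericytes and of glial progenitors. It had 26.2, 28.9 and 26.0 CPM in doxycycline libraries 1 to 3, against 17.2, 30.5 and 31.0 CPM in untreated libraries 1 to 3. The doxycycline libraries lay inside the untreated range, which untreated library 1 widened downwards. EdgeR put the log2 fold change at 0.04 (SE 0.23, with a 95% interval of -0.47 to 0.56, edgeR adjusted p = 0.937), and it turned to -0.19 without untreated library 1 and to -0.01 without doxycycline library 2. Glial lineage genes gave no call either, with 0 of 5 tested past the threshold (edgeR; 5.02% of all genes). Of these, 0 had an unadjusted edgeR p under 0.05, and 0 were called by DESeq2 and by limma-voom. Leaving out doxycycline library 2 gave 2 higher (8.18% of all genes). The oligodendrocyte factor gene Olig2 had at most 2 counts in a library.

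Among the pericyte markers most values were positive and none passed the threshold. Of 20 tested, Rgs5 and Cspg4 included, 0 were called (edgeR; 5.02% of all genes). At an unadjusted edgeR p under 0.05, 4 were higher and 1 lower (13.1% and 10.8% of all genes). DESeq2 called 3 higher (5.74% of all genes) and 1 lower (790 of 15292 genes over all), and limma-voom 0. There were 15 positive and 5 negative values, with a median log2 fold change of 0.16. Nearest to the threshold was Tbx18, a transcription factor gene of mural progenitors. It had 45.4, 32.3 and 57.9 CPM in doxycycline libraries 1 to 3, against 24.1, 27.4 and 21.3 CPM in untreated libraries 1 to 3, without overlap (log2 fold change 0.90, edgeR adjusted p = 0.0506). Gucy1a3, a subunit of the nitric oxide receptor of smooth muscle, was next (1.04, edgeR adjusted p = 0.0827). Without doxycycline library 2, 5 of the list were higher (8.18% of all genes) and 1 lower (866 of 15217 genes over all).

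**Figure D3:**
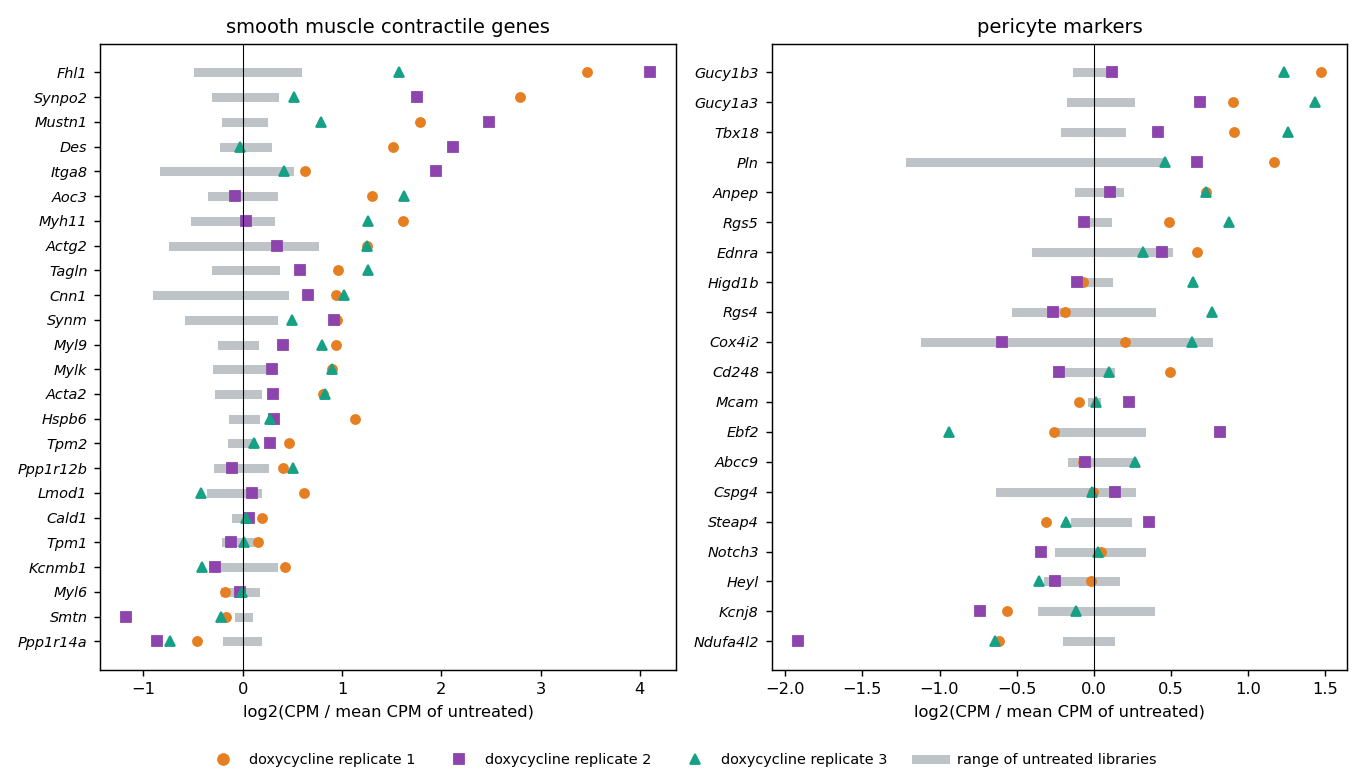
Level of each smooth muscle contractile gene (left) and pericyte marker (right) in the 3 doxycycline libraries, as log2 of CPM over the mean CPM of the untreated libraries, with the untreated range as a grey bar. Acta2, Tagln, Myl9, Mylk and Cnn1 lie above the untreated range in every doxycycline library and lowest in library 2, whereas Fhl1 and Mustn1 are highest in library 2. Synpo2, Synm, Tpm2 and Hspb6 also lie above that range in every doxycycline library but are lowest in library 3.

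Of the 9 tested genes, Acta2 and Tagln came closest to the threshold. Acta2 encodes smooth muscle α-actin, the thin filament actin of mural cells and myofibroblasts. It had 69.1, 48.7 and 69.7 CPM in doxycycline libraries 1 to 3, against 41.1, 33.4 and 43.7 CPM in untreated libraries 1 to 3. Even the lowest doxycycline library lay above all untreated ones. The means were 62.5 ± 12.0 CPM after doxycycline and 39.4 ± 5.36 CPM untreated (SD, n = 3 each). As a log2 fold change this was 0.67 (SE 0.17, with a 95% interval of 0.28 to 1.05), with an unadjusted p of 0.00375 and an adjusted p of 0.0598 (edgeR). It passed in DESeq2 (adjusted p = 0.00601), with no filter on low counts (adjusted p = 0.0314) and without doxycycline library 2 (0.81, adjusted p = 0.00431).

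Of the 1986 stretches of 50 bases in the longest coding Acta2 transcript, 7 also occur in transcripts of other genes, the cytoplasmic actin gene Actg1 and actin pseudogenes among them. Only the genes sharing the most stretches were listed, so whether Acta1 shares some of these 7 is not shown. Acta1, the skeletal muscle actin gene, had 54.8, 79.1 and 9.28 CPM in doxycycline libraries 1 to 3, against 2.12, 10.8 and 1.55 CPM in untreated libraries 1 to 3. Its highest library was thus doxycycline library 2, in which Acta2 was lowest of the doxycycline group. Acta2 was nearly equal in doxycycline libraries 1 and 3 (69.1 and 69.7 CPM), where Acta1 was at 54.8 and 9.28 CPM. The part of Acta1 reads or of muscle tissue in the Acta2 values was not tested.

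The promoter of Acta2 is shown because SRF and myocardin act through CArG boxes, which were searched in 250 bases before the annotated start (RefSeq, GRCm38.p6). A CArG box was taken as CC and GG around 6 bases with at most 1 G or C among them, a pattern that reads the same on both strands. Of the 10 genes, the promoters of Acta2, Cnn1, Rgs5, Pdgfra and Cspg4 were searched. Those of Pdgfb, Pdgfrb, Tagln, Myh11 and Myocd were not. Capitals mark the boxes found, and Cnn1 is printed as a smooth muscle gene with none in this window.
Acta2, chr19:34255374-34255623, minus strand: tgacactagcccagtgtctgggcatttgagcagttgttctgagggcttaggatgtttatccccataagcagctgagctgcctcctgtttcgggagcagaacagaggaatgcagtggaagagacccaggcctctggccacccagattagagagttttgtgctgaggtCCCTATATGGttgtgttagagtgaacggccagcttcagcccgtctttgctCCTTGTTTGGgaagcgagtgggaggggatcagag
Cnn1, chr9:22099003-22099252, plus strand: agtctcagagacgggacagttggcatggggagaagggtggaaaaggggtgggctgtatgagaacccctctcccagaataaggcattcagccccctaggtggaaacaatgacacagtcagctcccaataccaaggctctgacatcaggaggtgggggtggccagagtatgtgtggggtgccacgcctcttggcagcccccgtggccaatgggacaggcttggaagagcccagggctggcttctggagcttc
The Acta2 window held 2 boxes, CCCTATATGG from 84 to 75 bases before the start and CCTTGTTTGG from 34 to 25 bases before it, each with 1 G or C in the core. Cnn1, Rgs5, Pdgfra and Cspg4 held none in their windows. Of all 32851 promoter windows, 8.59% held at least 1 such box and 0.67% held 2 or more, while 1.47% held a box with only A and T in the core. A match of letters is a description and not a binding site, and no binding data were measured here.

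Tagln encodes transgelin (SM22α), an actin-binding protein of smooth muscle. It had 25.2, 19.2 and 31.0 CPM in doxycycline libraries 1 to 3, against 11.9, 10.7 and 16.2 CPM in untreated libraries 1 to 3. The groups did not overlap. The means were 25.1 ± 5.90 CPM after doxycycline and 12.9 ± 2.90 CPM untreated (SD, n = 3 each), for a log2 fold change of 0.96 (SE 0.24, with a 95% interval of 0.41 to 1.52, edgeR adjusted p = 0.0599). Tagln passed in DESeq2 (adjusted p = 0.00319), with no filter on low counts (0.0364), with offsets for GC content and length (0.048) and without doxycycline library 2 (0.0102). Exons of Pcsk7, on the opposite strand, overlap Tagln by up to 108 bases and an antisense transcript by up to 645. Pcsk7 itself had 55.8, 83.2 and 75.1 CPM in doxycycline libraries 1 to 3, against 66.9, 70.2 and 76.3 CPM in untreated libraries 1 to 3.

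Myh11, the smooth muscle myosin heavy chain gene and a marker of the mature contractile state, was split within the doxycycline group. It had 21.0, 7.01 and 16.5 CPM in doxycycline libraries 1 to 3, against 4.92, 8.30 and 7.36 CPM in untreated libraries 1 to 3. Libraries 1 and 3 of the doxycycline group lay above the untreated range and library 2 within it. EdgeR put the log2 fold change at 1.11 (SE 0.40, with a 95% interval of 0.19 to 2.03, edgeR adjusted p = 0.143). Without doxycycline library 2 it was 1.44 and passed (adjusted p = 0.00851), and DESeq2 passed it on all libraries (adjusted p = 0.0484). Of its 6500 stretches of 50 bases, 26 are shared with the non-muscle myosin genes Myh9 and Myh10.

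Cnn1 encodes calponin 1, an actin- and calmodulin-binding protein of contractile smooth muscle, and was scarce. It had 22, 22 and 31 counts in doxycycline libraries 1 to 3, against 7, 17 and 19 in untreated libraries 1 to 3, or 1.77 ± 0.227 CPM after doxycycline and 0.960 ± 0.388 CPM untreated (SD, n = 3 each). In CPM the groups did not overlap. The pooled reads gave a ratio of 1.81 (95% interval 1.23 to 2.69, exact binomial, counting error only). With the spread between libraries included, the log2 fold change was 0.86 (SE 0.42, with a 95% interval of -0.09 to 1.82, edgeR adjusted p = 0.256).

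Myocd encodes myocardin, the coactivator that drives the smooth muscle programme with SRF. It had 8, 8 and 15 counts in doxycycline libraries 1 to 3, against 9, 2 and 8 in untreated libraries 1 to 3. The groups overlapped, and the ratio of the pooled reads was 1.69 (95% interval 0.925 to 3.17, exact binomial, counting error only). A ratio of 1 lies inside this interval, as does one of up to 3.17. In a fit with no filter on low counts its log2 fold change was 0.69 (edgeR adjusted p = 0.668). Of the 7 tested genes of the SRF and myocardin family list, 0 were called (edgeR; 5.02% of all genes; 0 by DESeq2 and by limma-voom). Unadjusted edgeR p-values under 0.05 placed 2 higher and 1 lower (13.1% and 10.8% of all genes). Leaving out doxycycline library 2 gave 3 higher (8.18% of all genes). Srf itself was at 83.6 ± 4.26 CPM after doxycycline and 103 ± 12.9 CPM untreated (SD, n = 3 each), with a log2 fold change of -0.30 (edgeR adjusted p = 0.136) that became 0.02 with offsets for GC content and length. Mamstr, which encodes a coactivator of MEF2, was at 1.42 (edgeR adjusted p = 0.128).

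Across the broader smooth muscle contractile list, values leaned upwards and few passed. Of 24 tested, 2 were higher and none lower (edgeR; 2.84% and 2.18% of all genes). At an unadjusted edgeR p under 0.05, 14 were higher and 1 lower (13.1% and 10.8% of all genes). DESeq2 called 9 higher (5.74% of all genes) and limma-voom 0, neither any lower. Positive values were found for 20, with a median log2 fold change of 0.73, or 0.68 over the 20 genes other than Acta2, Tagln, Cnn1 and Myh11. Both called genes, Fhl1 (log2 fold change 3.37, edgeR adjusted p = 0.0234) and Mustn1 (1.84, adjusted p = 0.0495), are also strongly expressed in skeletal muscle. Fhl1 had 39.9, 61.9 and 10.7 CPM in doxycycline libraries 1 to 3, against 2.65, 5.28 and 2.90 CPM in untreated libraries 1 to 3, which is the order of libraries shown by the skeletal muscle sum in the doxycycline group. The part of muscle tissue in both calls was not tested. Both calls were lost without any 1 untreated library (adjusted p 0.0927 to 0.224) and without doxycycline library 1 (0.0754 and 0.0859), and that of Fhl1 also with no filter on low counts (0.105). Myl9 and Mylk, the regulatory light chain and its kinase, were near Acta2 in size and did not pass (0.73 and 0.72, edgeR adjusted p = 0.0877 and 0.0742). Without doxycycline library 2, 8 of the list were higher (8.18% of all genes) and none lower.

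Markers of other cell types moved in the same libraries. Of 15 skeletal muscle markers, 9 were higher (edgeR; 14 by DESeq2 and 1 by limma-voom; median log2 fold change 3.29). Over all genes, edgeR called 2.84% higher and DESeq2 5.74%, and limma-voom called 3.56% in either direction. Of 17 fibroblast markers 6 were higher (8 and 5; median 0.67), and of 12 macrophage markers 3 (5 and 2; median 0.35). None of these was lower in edgeR, while DESeq2 called 1 fibroblast marker lower (Pi16; 790 of 15292 genes over all). Without doxycycline library 2 the numbers higher were 8, 9 and 5 (8.18% of all genes), with 1 fibroblast marker lower (866 of 15217 genes over all). Without any 1 untreated library, the calls of Myh4, Myh2, Pvalb and Myl1 in muscle, of Postn and Dpt in fibroblasts and of Mrc1, Cd163 and Emr1 in macrophages were lost (edgeR adjusted p 0.0519 to 0.208), and those of the fibroblast genes Lum and Dcn held (0.0184 to 0.0381). Fibroblast markers summed to 3308, 2686 and 3256 CPM in doxycycline libraries 1 to 3 and to 2331, 2386 and 2407 CPM in untreated libraries 1 to 3. That sum was thus lowest of the doxycycline group in library 2, as were Acta2, Tagln and Rgs5. Of the 17 markers 12 were lowest there, but Col3a1, Col5a2 and Fap were highest, as was Pdgfra, itself a fibroblast gene. Platelet genes, whose cells store PDGF, summed to 47.0 to 66.2 CPM in the doxycycline libraries and 54.5 to 57.3 CPM in the untreated libraries. Of 5 tested, 0 were called (edgeR; 5.02% of all genes; 0 by DESeq2 and by limma-voom). Unadjusted edgeR p-values under 0.05 placed 1 higher (13.1% of all genes). Leaving out doxycycline library 2 gave 1 lower, Pf4 (866 of 15217 genes over all). Every marker list had counts for all of its measured genes. Their part in the values of the PDGF and mural genes was not tested.

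Compared per kilobase of the longest annotated transcript, the 10 genes kept a similar order of levels in both groups. Pdgfrb came first at 51.4 ± 2.68 CPM per kilobase after doxycycline and 58.5 ± 1.70 untreated (SD, n = 3 each). Acta2 followed, at 30.7 ± 5.88 after doxycycline and 19.4 ± 2.63 untreated. Pdgfra came next, at 22.5 ± 9.79 after doxycycline and 12.6 ± 2.09 untreated, but in the doxycycline libraries its range overlapped that of Acta2. In that group neighbouring ranges overlapped from Acta2 down through Pdgfra, Tagln and Rgs5 to Pdgfb, so the order of neighbours there is not resolved. Genes further apart were separated in part, with Acta2 wholly above Tagln, Rgs5 and Pdgfb. The order of Cspg4 and Myh11 is not resolved either. Pdgfb took rank 6 in the doxycycline group and rank 4 in the untreated group, where its range overlapped that of Pdgfra. By their means, Cspg4, Myh11, Cnn1 and Myocd followed in that order in both groups, with Myocd at 0.141 ± 0.0392 after doxycycline and 0.0878 ± 0.0564 untreated.

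The genes whose pattern over the 6 libraries was nearest differed between the roles. Likeness was measured as the root mean square difference of log2(CPM + 0.5), each gene centred on its own mean, among 14268 genes with a mean of at least 1 CPM. Nearest to Acta2 were Myl9 (0.0659), which encodes the smooth muscle regulatory light chain, Mcoln2 (0.0885) and Dhrs3 (0.0899). Tagln ranked 145 and Rgs5 171 in nearness to Acta2, Cnn1 ranked 1129 and Myh11 7564, whereas Pdgfra ranked 11430. Nearest to Pdgfra were Fabp3 (0.109), a fatty acid-binding protein gene of muscle and heart, Mogat2 (0.127) and Peli3 (0.135). Nearest to Rgs5 were Fam115c (0.0493), Ly6a (0.0733), which encodes the surface protein SCA-1, and 9430083A17Rik (0.0788). The Rgs5 pattern was thus closer to Acta2 (0.196) than to the fellow pericyte gene Cspg4 (0.474).

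**Figure D4:**
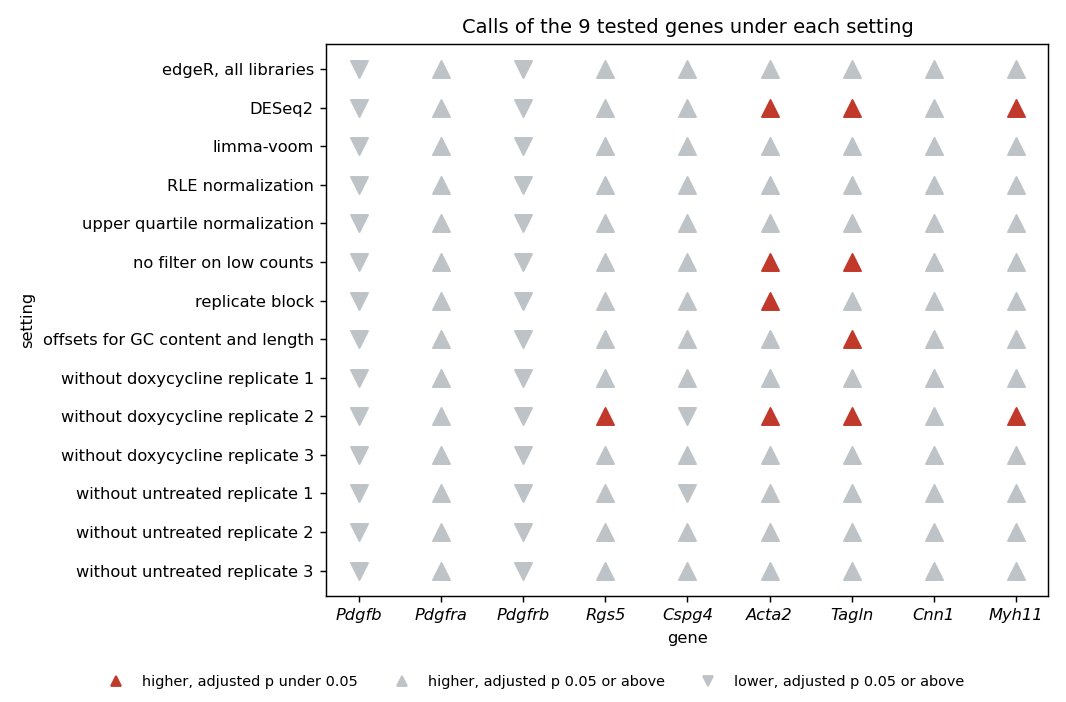
Direction and call of the 9 tested genes (columns) in the fit on all libraries and under 13 other settings (rows), where an upward triangle is a positive log2 fold change, a downward one a negative, and red an adjusted p under 0.05. Acta2 and Tagln passed in 4 settings each, Myh11 in 2 and Rgs5 in 1, always upwards, and Cspg4 changed sign in 2.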

How the data were processed

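The authors deposited raw read counts per gene symbol, and the submitters' processing notes name mouse build mm9, TopHat2 2.0.8, TopHat and HTSeq, without their role. How strand, multiply mapped reads and duplicates were handled is not given in the sources here. The 90 rows without a gene name (0.0361% to 0.0402% of a library's counts) were left out. Between libraries of one group, chi-square per degree of freedom was 5.34 to 32.0, so no library looked like a second deposit of another; this does not show separate animals.

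Counts were tested in R 4.3.3 with edgeR 4.0.16: filterByExpr, TMM scaling (factors 0.985 to 1.02), robust quasi-likelihood test on all 6 libraries, two-sided, Benjamini-Hochberg adjustment over all 14809 genes tested, threshold 0.05. Standard errors are the log2 fold change over the square root of F. DESeq2 1.42.0 and limma-voom (limma 3.58.1) were alternatives, with other scalings, no filter, offsets for GC content and length, a replicate block and each library left out. Named genes are the 10 genes, St18, the 3 genes nearest in pattern to 1 gene of each role and, from each list, at most the 4 called genes or the 2 nearest to a call; others were chosen after their values were seen. Genes and lists were chosen with earlier results of these data known. Lengths, GC content and promoters come from GENCODE M21 and RefSeq GRCm38.p6, another build than the authors' mm9.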

Additional observations from a re-analysis of the deposited data

How the results depend on the processing

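Over the 13 alternatives, 117 values of the 9 tested genes were computed: 104 kept their direction and stayed short of the threshold, 11 passed it in the same direction and 2 reversed, those of Cspg4 (-0.19 without untreated replicate 1, -0.01 without doxycycline replicate 2, at most 0.17 with another library left out). The number of these genes called higher was 0 in the reported fit, 3 in DESeq2, 2 with no filter on low counts, 1 (Tagln) with offsets for GC content and length, and 0 to 4 when 1 library was left out. None was called lower in any of them. Over all genes, 421 were higher and 323 lower, against 877 and 790 in DESeq2, and 251 higher and 276 lower in limma-voom. Leaving out 1 library gave 11 to 1244 higher and 12 to 866 lower, with the fewest when an untreated library was left out. The replicate block gave 215 higher and 179 lower, and 1 of the 9 genes higher, Acta2. Whether a replicate number pairs samples is not given by the labels. Correlations of deviations of same-numbered libraries were -0.00976, -0.0747 and 0.0155, which cannot settle this with 3 libraries per group. Among the other genes named, Srf reversed to 0.017 with offsets for GC content and length, and Pf4, a platelet gene at -0.14, to 0.0045 without doxycycline replicate 3 (-0.44 without doxycycline replicate 2). The cause was not tested. Depth limits Cnn1 and Myocd, with 75 and 31 counts in the doxycycline group and 43 and 19 in the untreated group.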

Other observations

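A few genes of the smooth muscle and pericyte lists were in doxycycline library 2 at least 2-fold above the mean of doxycycline libraries 1 and 3, a selection made after their values were seen. Ebf2, a transcription factor gene of mesenchymal progenitors, had 25.3, 53.2 and 15.8 CPM in doxycycline libraries 1 to 3, against 25.6, 27.9 and 37.3 CPM in untreated libraries 1 to 3. Itga8, an integrin gene of mesenchymal and smooth muscle cells, had 9.73, 24.3 and 8.40 CPM in doxycycline libraries 1 to 3, against 8.70, 6.54 and 3.64 CPM in untreated libraries 1 to 3. Des, the muscle intermediate filament gene, had 38.0, 57.6 and 12.98 CPM in doxycycline libraries 1 to 3, against 15.7, 12.4 and 11.7 CPM in untreated libraries 1 to 3. In the same library Ndufa4l2, a pericyte marker, was lowest, at 6.53 CPM beside 16.1 and 15.8 CPM in doxycycline libraries 1 and 3, against 26.5, 21.8 and 25.6 CPM in untreated libraries 1 to 3. None of Ebf2, Itga8, Des and Ndufa4l2 passed the threshold on all libraries (edgeR adjusted p 0.103 to 0.951). Ndufa4l2 passed as lower in DESeq2 (adjusted p = 0.0232) and without doxycycline library 2 (edgeR adjusted p = 0.0368). Fhl1 and Mustn1, both called higher above, also met the 2-fold rule.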
